A study of Mus musculus with 36 samples.

Results

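The vascular endothelial growth factor (VEGF) and angiopoietin ligands and receptors were described here across mammary tumors and control mammary glands of mice. Its members were chosen by gene symbol for their place in these pathways, and all 10, of 21650 genes in the expression table, were found: the ligands Vegfa, Vegfb, Vegfc, Angpt1 and Angpt2, the receptors Kdr, Flt1, Flt4 and Tek, and the co-receptor Nrp1. RNA-seq covered 36 libraries in 12 groups of 3. Primary tumors were grown from 4T1 cells in BALB/c hosts and from Py230 cells in C57BL/6 hosts and taken 1, 3 or 6 weeks after inoculation of the cells into the mammary duct, and glands of BALB/c and of C57BL/6 mice that had received Matrigel alone were taken at the same times. The hosts were females that had nursed pups until weaning, and every inoculum, with or without cells, was in Matrigel, a basement membrane extract. 4T1 is a metastatic line of BALB/c origin, here with a luciferase reporter, and Py230 was derived from a spontaneous tumor of a C57BL/6 mouse carrying the polyoma middle T antigen under the MMTV promoter. Each model is 1 cell line in 1 mouse strain, and more Py230 than 4T1 cells were inoculated per gland. The line, the strain and the number of cells therefore cannot be told apart in the tumors. The Matrigel glands of both strains measure the strain alone.

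VEGF-A is the main growth factor for blood vessels: it is induced by low oxygen and acts on endothelial cells through VEGFR2, the product of Kdr. VEGFR1, the product of Flt1, binds VEGF-A tightly but signals weakly and can hold the ligand away from VEGFR2. VEGF-B binds VEGFR1 but not VEGFR2. VEGF-C acts on lymphatic endothelium through VEGFR3, the product of Flt4, and neuropilin-1 (Nrp1) is a co-receptor on endothelial and other cells. Angiopoietin-1, made largely by cells around the vessel, activates the endothelial receptor TIE2 (Tek) and keeps vessels quiet and tight, whereas angiopoietin-2, released by activated endothelium, opposes it in many settings and loosens vessels so that they can sprout. In the mammary gland these vessels run through fat tissue around the epithelial ducts, and adipocytes are themselves a source of VEGF ligands.

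The deposited values are scores: within each library, the authors' values were centered at 0 and scaled to an SD of 1 across its genes. A score therefore gives a gene's place among the genes of its library on a log-like scale. For 13567 genes at or above 100 mean normalized counts (the authors' average, taken from their deposited comparison tables), the mean score followed the log2 of that count with r = 0.972, and 1 score unit spanned 2.94 log2 units. This slope is between genes, which are not replicates, and was not calibrated for differences between libraries, so differences are given in score units. The depth of each library is unknown from the scores. The labels number the tumors and glands as separate samples, and they do not say more about their independence. Differences were tested with limma's moderated test over all 36 libraries, with Benjamini-Hochberg adjustment over all genes, and a gene is called where the adjusted p is under 0.05.

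Libraries of 1 group differed in their tissue make-up. The mean score of 8 adipocyte markers was 1.52 to 2.13 in the 18 Matrigel glands. It was 1.08, 1.59 and 1.07 in the 4T1 tumors of week 1, 0.570, 1.94 and 2.08 at week 3 and -0.420, -0.458 and -0.144 at week 6. In the Py230 tumors it was 1.77, 1.88 and 1.67 at week 1, 0.193, 1.59 and 1.85 at week 3 and -0.234, -0.0515 and 0.911 at week 6. 4T1 replicate 1 and Py230 replicate 1 of week 3 thus stood apart from the other tumors of their groups. The members called when both were left out, an alternative added after the data were seen, are given beside the results of week 3. The mean of 7 skeletal muscle markers ranged within groups as widely as from -0.607 to 2.86 in the C57BL/6 glands of week 1, and the mean of 7 epithelial markers, which fit the labelled tissue, was between 1.27 and 1.67 in every group.

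The authors' mean normalized count over all libraries, per kilobase of exon in the GENCODE M21 annotation, put the ligands Vegfb (632) and Vegfa (387) first, then Nrp1 (202), Kdr (201) and Tek (199), then Angpt1 (122) and Flt1 (112), and last Angpt2 (69.3), Vegfc (66.7) and Flt4 (23.5). All are protein-coding genes, and on GRCm38 (mm10), they lie as follows. Among the ligands, Vegfa lies at chr17:46016993-46032369, Vegfb at chr19:6982473-6987651, Vegfc at chr8:54077606-54187096, Angpt1 at chr15:42424723-42676977 and Angpt2 at chr8:18690263-18741562. Among the receptors, Kdr lies at chr5:75932827-75978458, Flt1 at chr5:147561604-147726011, Flt4 at chr11:49609263-49652739, Tek at chr4:94739289-94874976 and Nrp1 at chr8:128358604-128503363. Vegfc, Tek, Flt4 and Nrp1 are on the plus strand and the others on the minus strand.

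The RefSeq promoter table (GRCm38.p6) held 8 of the 10 members, with 9 start sites, and the 250 bases before each start were searched on both strands for the core letters bound by hypoxia-inducible factors (ACGTG and GCGTG) and for a pair of ETS-factor motifs (CAGGAAG and CGGAAGT), ETS factors being regulators of many endothelial genes. The upstream windows of 4 members are shown because the results below turn on them: Kdr and Tek, receptors that fell in both tumors by week 6, Flt1, a receptor that passed no test against the glands, and Vegfa, the ligand of Kdr and Flt1. They are written 5′ to 3′ on the strand of the gene, each ends 1 base before the start site, and capitals mark GCGTG or its reverse complement CACGC.
Kdr, chr5:75978456-75978705, minus strand: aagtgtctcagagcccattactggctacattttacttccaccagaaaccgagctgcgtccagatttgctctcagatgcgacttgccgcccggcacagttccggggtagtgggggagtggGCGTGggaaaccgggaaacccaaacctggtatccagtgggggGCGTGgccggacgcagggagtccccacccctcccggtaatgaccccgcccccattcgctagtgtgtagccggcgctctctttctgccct
Flt1, chr5:147726012-147726261, minus strand: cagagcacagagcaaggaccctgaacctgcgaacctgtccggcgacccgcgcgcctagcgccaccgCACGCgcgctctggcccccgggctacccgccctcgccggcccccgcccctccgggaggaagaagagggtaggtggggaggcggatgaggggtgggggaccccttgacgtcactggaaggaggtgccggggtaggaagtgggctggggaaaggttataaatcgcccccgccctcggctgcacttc
Tek, chr4:94739039-94739288, plus strand: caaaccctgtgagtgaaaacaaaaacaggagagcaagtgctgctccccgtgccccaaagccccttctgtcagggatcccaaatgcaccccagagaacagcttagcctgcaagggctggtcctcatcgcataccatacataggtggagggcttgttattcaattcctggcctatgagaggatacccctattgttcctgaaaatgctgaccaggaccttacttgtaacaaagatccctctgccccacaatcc
Vegfa, chr17:46032378-46032627, minus strand: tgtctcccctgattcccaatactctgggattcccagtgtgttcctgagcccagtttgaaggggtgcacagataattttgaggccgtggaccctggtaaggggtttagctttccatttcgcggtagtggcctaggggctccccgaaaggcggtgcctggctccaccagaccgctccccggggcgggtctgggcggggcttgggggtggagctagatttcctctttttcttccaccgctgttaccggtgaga
GCGTG stood in the Kdr window at positions -131 and -89 from the start, and in the Flt1 window at -184 on the opposite strand. The windows of Tek, Vegfc and Flt4 and the window of Vegfa printed here held none of the 4 motifs, while those of Nrp1 and Vegfb and that of a start site inside the Vegfa gene held at least GCGTG. Of 32851 mouse promoter windows of this length, 28.2% held GCGTG, 16.6% ACGTG, 10.8% CAGGAAG and 4.92% CGGAAGT. No member window held either of the ETS strings searched, and other forms of the ETS site were not searched for. These are matches of letters and not sites of binding.

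Against the Matrigel glands of its own strain, each tumor changed most at week 6, and the 2 models shared part of the change. Kdr, Tek and Angpt1 fell in both, Angpt2 and Nrp1 rose in 4T1 tumors and fell in Py230 tumors, and Vegfa and Vegfb fell in Py230 tumors (the 4T1 call of Nrp1 was lost under both other scalings of the libraries, with adjusted p = 0.0579 after quantile normalization and 0.192 with median scaling). Of the 10 members, 5 were called in 4T1 tumors at week 6, 2 higher and 3 lower, where 60.1% of all genes were called, and 7 were called in Py230 tumors, all lower, where 47.6% of all genes were called and 18.7% were called lower. The median difference of the 10 members was -0.0167 in 4T1 and -0.282 in Py230 tumors, beside 0.0651 and 0.0337 over all genes. At week 1, Vegfa alone was called in 4T1 tumors, and lower (16.6% of all genes called, 6.72% lower), and no member was called in Py230 tumors, where 2 genes of the whole table were called (0.00924%) and no member had an unadjusted p under 0.05. At week 3, no member was called in 4T1 tumors by limma, 3 had an unadjusted p under 0.05 (3.25% of all genes called), and Nrp1 and Tek were called lower in Py230 tumors (19.7% of all genes called, 6.9% lower). The count of week 3 in 4T1 tumors was 2 without replicate 3, and that in Py230 tumors was 1 without Py230 replicate 1 or without any one C57BL/6 gland, and 5 without Py230 replicate 3.

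**Figure D1:**
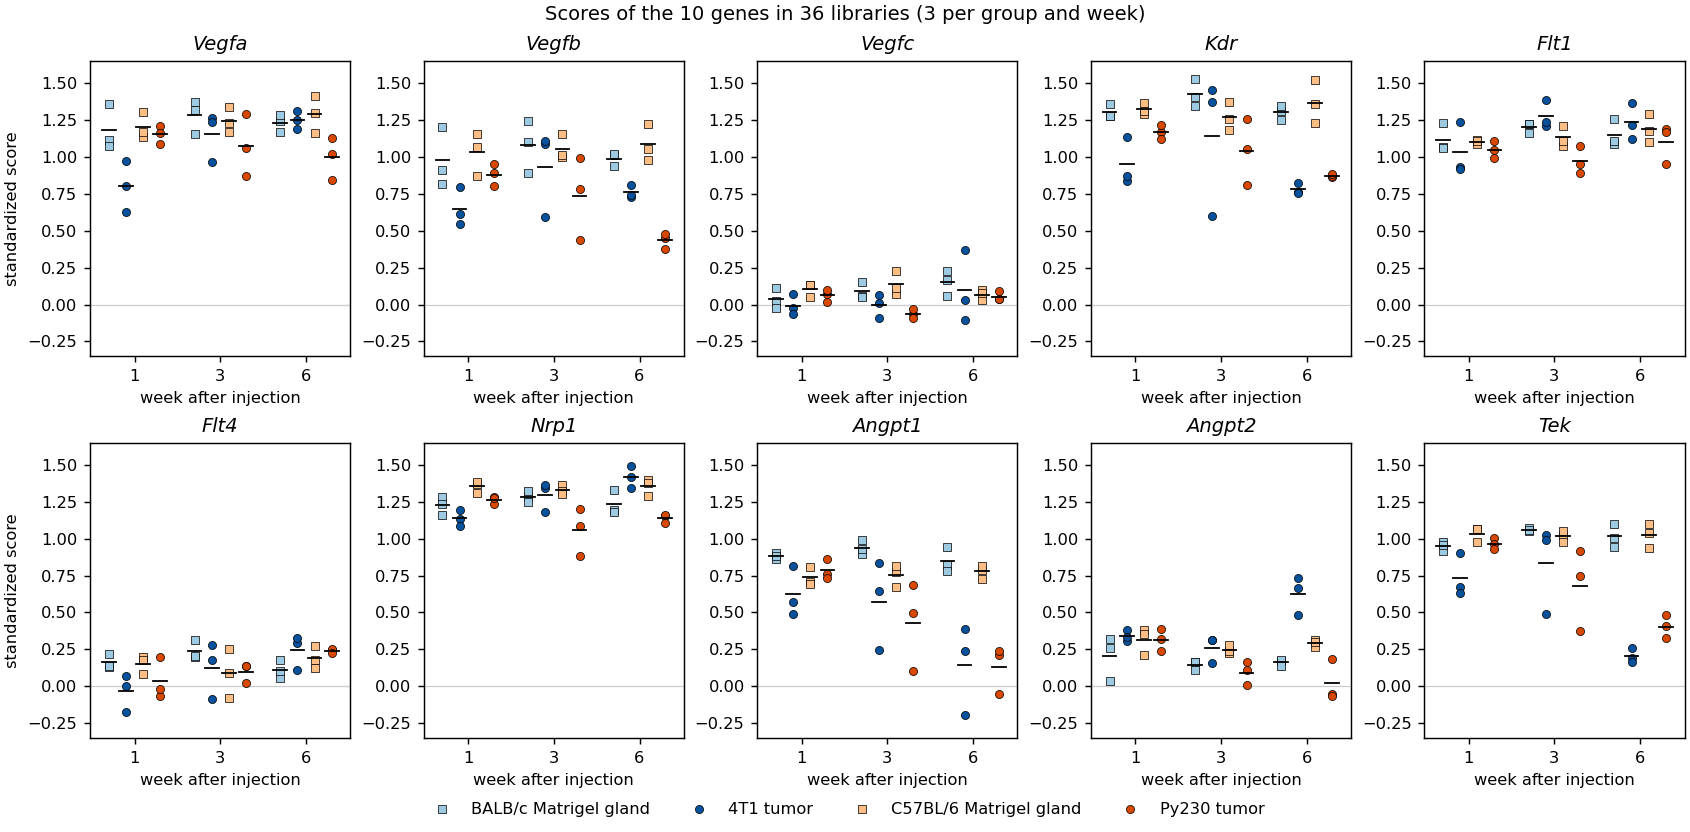
Standardized score (vertical axis, SD units of the library) of each of the 10 genes by week after injection (horizontal axis), with a point for each library, a bar for the mean of 3, squares for Matrigel glands and circles for tumors. Tek and Kdr lie below all glands in the 6 tumors of week 6, and Angpt2 of the 4T1 tumors of week 6 lies above all other libraries.

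**Figure D2:**
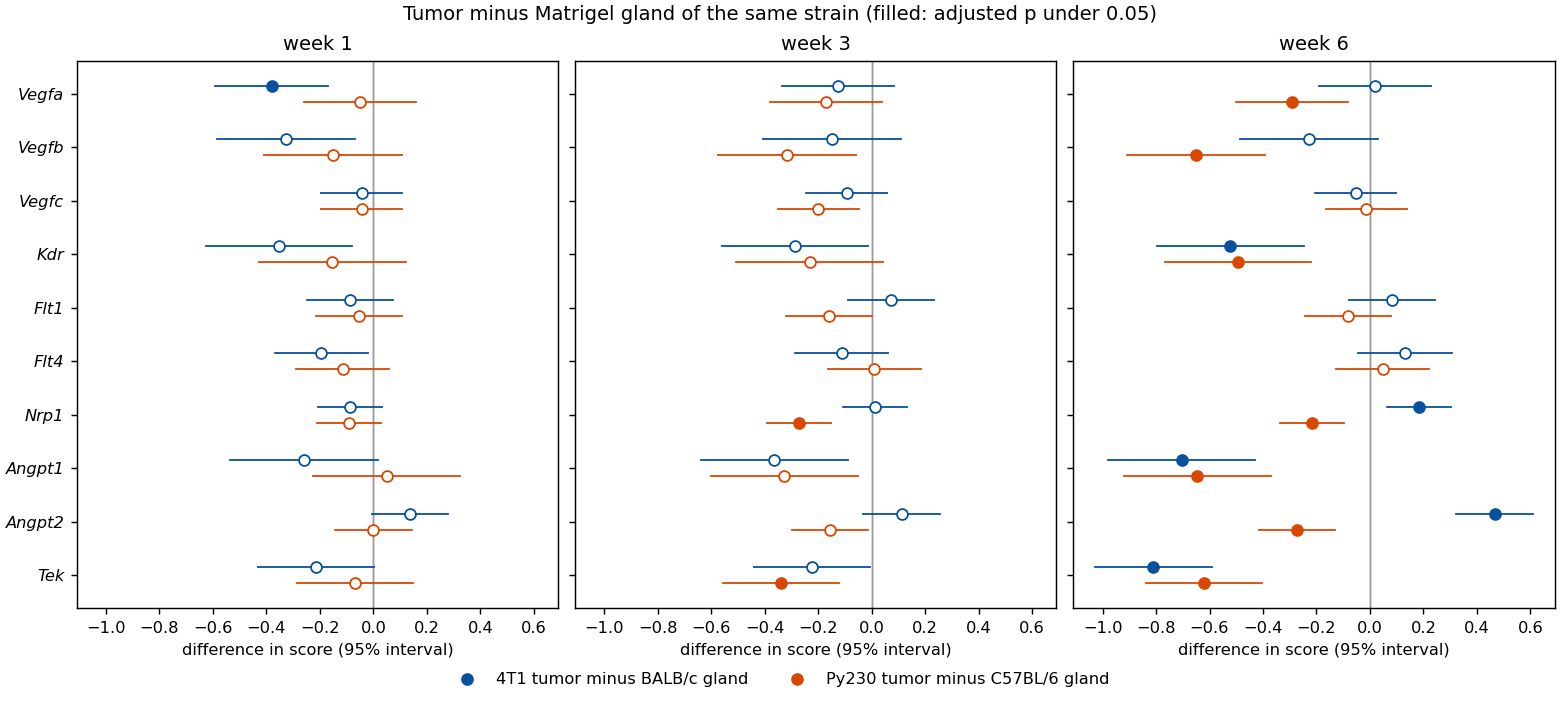
Difference in score between tumor and Matrigel gland of the same strain (horizontal axis, with the 95% interval of the fit) for the 10 genes at weeks 1, 3 and 6, filled where the adjusted p is under 0.05. At week 6, Kdr, Angpt1 and Tek were lower in both models, whereas Angpt2 lay on opposite sides of 0, as did Nrp1, whose 4T1 call was lost under both other scalings.

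Between the models, 1 member was called at week 1 (Vegfa, lower in 4T1 tumors, where 19.4% of all genes were called and 8.43% called lower), 2 at week 3 (Flt1 and Nrp1, higher in 4T1, beside 30.3% called and 11.9% called higher), and 4 at week 6 (Vegfa, Vegfb, Nrp1 and Angpt2, all higher in 4T1, beside 40.8% called and 24.1% called higher). At week 6, the count was 2 instead of 4 without 4T1 replicate 1, 2 or 3 or without Py230 replicate 1 or 3, because Vegfa and Vegfb lost their calls. With only the libraries of the groups compared in the fit, none of the calls of weeks 1 and 3 between the models or against glands passed, and at week 6 the count between the models was 6 instead of 4, as Kdr and Tek were called lower in 4T1 tumors. At week 3 the count was 5 without 4T1 replicate 1, 1 without Py230 replicate 1 and 4 without Py230 replicate 3. In the Matrigel glands, no member was called between the strains by limma at any week. Members with an unadjusted p under 0.05 numbered 1, 0 and 1 at weeks 1, 3 and 6, and 3.06%, 3.77% and 3.84% of all genes were called. With the gland difference subtracted from the tumor difference, no member was called at week 1 by limma, where 1 had an unadjusted p under 0.05 (0.305% of all genes called), Nrp1 was called at week 3 (9.15% called, 2.64% higher), and Nrp1 and Angpt2 at week 6 (25.5% called, 14.4% higher). The Nrp1 call of week 3 was lost without any one of 7 libraries, 4T1 replicate 2 or 3, Py230 replicate 1, BALB/c gland replicate 1 or 3 and C57BL/6 gland replicate 1 or 2, and with both adipocyte-poor libraries left out (0.251, adjusted p = 0.0518), and without Py230 replicate 3 Angpt2 was called as well. At week 6, Vegfa (0.0479) and Vegfb (0.00194) were also called with only the libraries of the groups compared. These comparisons use the same tumor libraries as those against the glands, so they are not separate evidence.

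**Figure D3:**
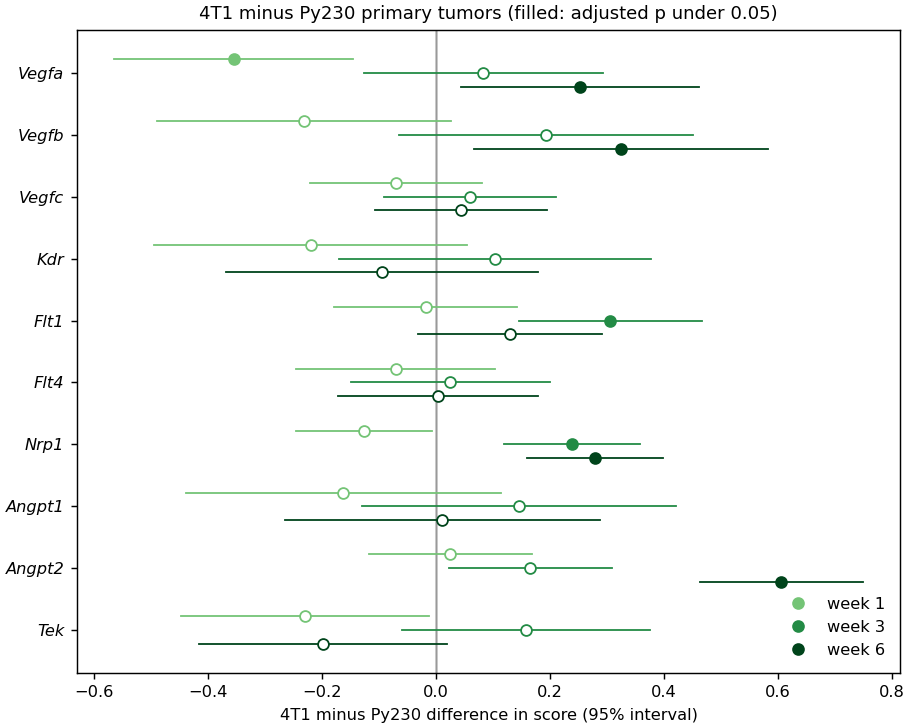
Score of 4T1 minus Py230 primary tumors (horizontal axis, with the 95% interval) for the 10 genes at weeks 1, 3 and 6, filled where the adjusted p is under 0.05. Angpt2 at week 6 had the largest difference (0.606), and Nrp1 was higher in 4T1 tumors at weeks 3 and 6.

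Vegfa, the ligand that drives vessel growth, was low in the 4T1 tumors of week 1 and was not called higher than the glands in any tumor group. Its scores in 4T1 tumors were 0.802, 0.972 and 0.626 at week 1, all under the 1.11, 1.36 and 1.07 of the BALB/c glands and the 1.21, 1.16 and 1.09 of the Py230 tumors. The difference was -0.381 (SE 0.102, adjusted p = 0.0155) from the glands and -0.354 (SE 0.102, adjusted p = 0.0170) from Py230 tumors. Both calls depended on single libraries. They were lost without 4T1 replicate 1 (adjusted p = 0.0641 and 0.0559) or 4T1 replicate 3 (0.124 and 0.131, with differences of -0.294 and -0.268). The first was also lost without BALB/c replicate 2 (0.121, with a difference of -0.293) and the second without Py230 replicate 1 (0.0709). The members called in the glands comparison then numbered 0 instead of 1, but 3 without 4T1 replicate 2 and 2 without BALB/c replicate 3. Between the models the count was 0 without those libraries and 2 without 4T1 replicate 2.

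At week 6 the order was turned. Vegfa scored 1.19, 1.31 and 1.25 in 4T1 tumors, overlapping the 1.25, 1.17 and 1.28 of the BALB/c glands, and 1.02, 1.13 and 0.844 in Py230 tumors, all under the 1.16, 1.41 and 1.30 of the C57BL/6 glands. The Py230 difference from glands was -0.292, SE 0.102, adjusted p = 0.0203, and the call was lost without Py230 replicate 3 (0.121) or C57BL/6 replicate 2 (0.106). 4T1 tumors exceeded Py230 tumors by 0.253 (SE 0.102, adjusted p = 0.0487), a call that was lost under both other scalings and without any one of 5 libraries (all but Py230 replicate 2, 0.0575 to 0.240). The difference between the models moved by 0.438 (SE 0.144, adjusted p = 0.0399) from week 1 to week 3, a change that was no longer called without 9 of the 12 libraries in turn (0.0512 to 0.179), all except 4T1 replicate 2 of week 1, 4T1 replicate 1 of week 3 and Py230 replicate 3 of week 3.

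Vegfb, the ligand of VEGFR1, fell in Py230 tumors. It scored 0.452, 0.377 and 0.475 at week 6, below the 0.983, 1.22 and 1.05 of the C57BL/6 glands without overlap, a difference of -0.652 (SE 0.126, adjusted p = 1.49e-04). The 4T1 tumors scored 0.729, 0.810 and 0.743, also under their glands (1.01, 0.937 and 1.02), but the difference of -0.228 (95% interval -0.486 to 0.0300) did not pass (adjusted p = 0.119, but 0.00198 with only these libraries in the fit). 4T1 exceeded Py230 tumors by 0.326 (SE 0.126, adjusted p = 0.0393), and this call was lost without any one of the 6 libraries (0.0623 to 0.110). Over the 12 groups the highest mean was 1.09 in the C57BL/6 glands of week 6 and the lowest 0.435 in the Py230 tumors of week 6.

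Vegfc, the lymphatic ligand, was called in none of the 21 comparisons in the fit of all genes and libraries. Its scores ran from -0.0211 to 0.229 in the 18 glands and from -0.106 to 0.371 in the 18 tumors. At week 3 the Py230 tumors (-0.0672, -0.0320 and -0.0927) were all below the C57BL/6 glands (0.229, 0.0716 and 0.109), and the difference of -0.200 (SE 0.0736, adjusted p = 0.0547) passed with median scaling (0.0485) and with only genes at or above 100 mean normalized counts (0.0468). At week 6 the interval of the difference from glands was -0.204 to 0.0987 in 4T1 and -0.165 to 0.138 in Py230 tumors. The highest tumor value was 4T1 replicate 2 of week 6. Without it the remaining pair gave a difference of -0.189 from the BALB/c glands (adjusted p = 0.00846). Without 4T1 replicate 3 of week 6, the rise from week 3 to week 6 in 4T1 tumors was 0.204 (adjusted p = 0.0189).

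The receptor Kdr fell in both tumors. At week 6 the 4T1 tumors scored 0.761, 0.759 and 0.821 and the Py230 tumors 0.864, 0.871 and 0.888, while the glands scored 1.31, 1.25 and 1.34 in BALB/c and 1.23, 1.52 and 1.36 in C57BL/6 mice. No tumor value of week 6 reached a gland value. The differences were -0.522 (SE 0.133, adjusted p = 0.00157) in 4T1 and -0.494 (SE 0.133, adjusted p = 0.00348) in Py230 tumors, of like size, and the models did not differ by a called amount in the fit of all libraries (-0.0940, 95% interval -0.368 to 0.180, adjusted p = 0.618, but 0.0337 with only these tumors in the fit). At week 3, 4T1 tumors scored 0.601, 1.38 and 1.45, so that the library poor in adipocyte markers gave the lowest value of all 36 and the other two lay among the glands. With both adipocyte-poor libraries of week 3 left out, Kdr was called higher in 4T1 than in Py230 tumors of that week (0.259, adjusted p = 0.0440). Within 4T1 tumors Kdr fell by 0.363 from week 3 to week 6 (SE 0.133, adjusted p = 0.0244), and by 0.633 without that library (adjusted p = 3.37e-06). The call was lost without 4T1 replicate 2 or 3 of week 3 (0.163 and 0.213, with falls of 0.246 and 0.208) or replicate 1 or 2 of week 6 (0.0582 and 0.0604). It was also lost with only the 4T1 tumors of these weeks in the fit (0.233, with an SE of 0.221).

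Flt1, the receptor that can hold VEGF-A away from Kdr, did not follow Kdr. Its 18 tumor scores ran from 0.891 to 1.39 and its 18 gland scores from 1.06 to 1.29, and no difference from the glands was called. At week 6 the interval of the difference was -0.0774 to 0.245 in 4T1 and -0.244 to 0.0778 in Py230 tumors, so a fall as large as that of Kdr lies outside both. At week 3, 4T1 tumors scored 1.39, 1.21 and 1.24 and Py230 tumors 0.891, 0.955 and 1.07, without overlap, and 4T1 exceeded Py230 tumors by 0.306 (SE 0.0784, adjusted p = 0.00423). This call was lost with both adipocyte-poor libraries left out (0.212, adjusted p = 0.137). The change of the model difference from week 1 to week 3 was 0.324 (adjusted p = 0.0472), and the call was lost without any one of 10 of the 12 libraries (0.0559 to 0.162), all but 4T1 replicate 1 of week 1 and Py230 replicate 3 of week 3, and with both adipocyte-poor libraries left out (0.230, adjusted p = 0.216). Flt4, the lymphatic receptor and the member with the lowest level per kilobase, was called in no comparison, with scores of -0.0774 to 0.310 in glands and -0.173 to 0.324 in tumors and with intervals at week 6 of -0.0434 to 0.306 in 4T1 and -0.127 to 0.223 in Py230 tumors. None of the 11 steps between neighbors in the order of its 12 group means was larger than their pooled SD, although sorting the means itself keeps such steps small.

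The co-receptor Nrp1 separated the models from week 3 on. At week 3 it scored 1.18, 1.34 and 1.36 in 4T1 tumors and 0.880, 1.09 and 1.20 in Py230 tumors, which overlapped in 1 library of each, beside 1.29, 1.32 and 1.25 in BALB/c and 1.36, 1.32 and 1.30 in C57BL/6 glands. The Py230 tumors were all below their glands (difference -0.272, SE 0.0583, adjusted p = 0.00210), while the 4T1 tumors lay around theirs (0.0106, adjusted p = 0.948). 4T1 exceeded Py230 tumors by 0.240 (SE 0.0583, adjusted p = 0.00281), which was 0.151 and not called without Py230 replicate 1 (0.0517). The call was also lost with only these tumors in the fit (adjusted p = 0.205).

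At week 6, Nrp1 scored 1.42, 1.34 and 1.49 in 4T1 tumors, above the 1.33, 1.19 and 1.18 of BALB/c glands, and 1.15, 1.16 and 1.11 in Py230 tumors, under the 1.29, 1.40 and 1.38 of C57BL/6 glands. No pair of these groups overlapped within a strain. The difference from glands was 0.185 (SE 0.0583, adjusted p = 0.00810) in 4T1 tumors, where the call was lost under both other scalings and without 4T1 replicate 3 (0.0531), and -0.215 (SE 0.0583, adjusted p = 0.00354) in Py230 tumors. 4T1 exceeded Py230 tumors by 0.280 (SE 0.0583, adjusted p = 3.26e-04), and by 0.400 (SE 0.0824, adjusted p = 6.17e-04) with the gland difference subtracted. Both of these held under every alternative tried.

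Angpt1, the ligand that keeps vessels quiet, fell in both tumors. At week 6 it scored 0.241, 0.390 and -0.198 in 4T1 and 0.213, -0.0511 and 0.236 in Py230 tumors, against 0.825, 0.779 and 0.943 in BALB/c and 0.789, 0.816 and 0.729 in C57BL/6 glands. All 6 tumors lay below all 6 glands, with differences of -0.705 (SE 0.134, adjusted p = 7.72e-05) in 4T1 and -0.645 (SE 0.134, adjusted p = 3.34e-04) in Py230 tumors. The models did not differ by a called amount (0.0117, 95% interval -0.264 to 0.288). From week 3 to week 6 it fell by 0.429 in 4T1 tumors (SE 0.134, adjusted p = 0.00915), a call lost without replicate 3 of week 3 (0.0863) or replicate 3 of week 6 (0.111, with a fall of 0.258). With only the 4T1 tumors of these weeks in the fit, the call was lost as well (0.138).

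Angpt2, the ligand of activated endothelium, moved in opposite directions in the 2 models. At week 6 the 4T1 tumors scored 0.732, 0.668 and 0.485, the 3 highest values of all 36 libraries, and the BALB/c glands 0.171, 0.179 and 0.136. The Py230 tumors scored -0.0505, 0.182 and -0.0662, all below the 0.315, 0.266 and 0.301 of the C57BL/6 glands. The differences were 0.466 (SE 0.0695, adjusted p = 3.21e-06) in 4T1 and -0.272 (SE 0.0695, adjusted p = 0.00221) in Py230 tumors.

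4T1 exceeded Py230 tumors in Angpt2 by 0.606 (SE 0.0695, adjusted p = 6.97e-08) at week 6 and by 0.738 (SE 0.0983, adjusted p = 2.59e-06) with the gland difference subtracted. At week 3 the 4T1 minus Py230 difference was 0.166 (95% interval 0.0229 to 0.308, adjusted p = 0.0722, but 0.0488 after quantile normalization and 0.0471 with median scaling) and at week 1 0.0255 (-0.117 to 0.168, 0.825). The rise from week 3 to week 6 in 4T1 tumors was 0.369 (SE 0.0695, adjusted p = 8.15e-05), and the model difference changed over that step by 0.441 (SE 0.0983, adjusted p = 0.00156). These 4 calls and both calls against glands at week 6 held under every alternative. Py230 tumors fell from week 1 (0.240, 0.319 and 0.386) to week 3 (0.00717, 0.108 and 0.164) by 0.222 (adjusted p = 0.0258), a call that was lost without Py230 replicate 2 or 3 of week 1 or replicate 1 or 2 of week 3 (0.0547 to 0.201).

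Tek, the receptor of both angiopoietins, showed the largest fall among the members in 4T1 tumors. At week 6 it scored 0.191, 0.165 and 0.261 in 4T1 and 0.324, 0.406 and 0.481 in Py230 tumors, against 1.10, 1.01 and 0.944 in BALB/c and 0.940, 1.04 and 1.10 in C57BL/6 glands. The tumors lay far below the glands, with differences of -0.810 (SE 0.106, adjusted p = 4.70e-07) in 4T1 and -0.622 (SE 0.106, adjusted p = 3.71e-05) in Py230 tumors. All 3 4T1 values were under the 3 Py230 values, but the difference between the models did not pass in the fit of all libraries (-0.198, 95% interval -0.415 to 0.0193, adjusted p = 0.142, but 0.0152 with only these tumors in the fit). At week 3, Tek scored 0.373, 0.745 and 0.919 in Py230 tumors, and its fall of 0.338 from glands (adjusted p = 0.0258) was 0.185 and not called without replicate 1, the adipocyte-poor library (0.359, and 0.0919 with both such libraries left out), and also not called without any one C57BL/6 gland of that week (0.0524 to 0.0804). From week 3 to week 6 it fell by 0.631 in 4T1 tumors (SE 0.106, adjusted p = 2.00e-05).

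The angiopoietins were also set against each other within each library, a measure chosen after their values were seen. Angpt2 minus Angpt1 in score averaged 0.484 (SD 0.203) in the 4T1 tumors of week 6, -0.687 (SD 0.108) in the BALB/c glands, -0.111 (SD 0.299) in Py230 tumors and -0.484 (SD 0.0611) in C57BL/6 glands, with n = 3 in each. The sign of this value does not compare the levels of the 2 genes, which differ in length, and only its shift between groups is read. The shift from glands was 0.395, 0.476 and 1.17 at weeks 1, 3 and 6 in 4T1 tumors and -0.0494, 0.171 and 0.373 in Py230 tumors. An exact two-sided permutation test gave p = 0.1 at each week in 4T1 tumors and 0.7, 0.2 and 0.1 in Py230 tumors. With n = 3 in each group its smallest possible p is 0.1, so it cannot pass a threshold of 0.05, and the shifts are a description.

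**Figure D4:**
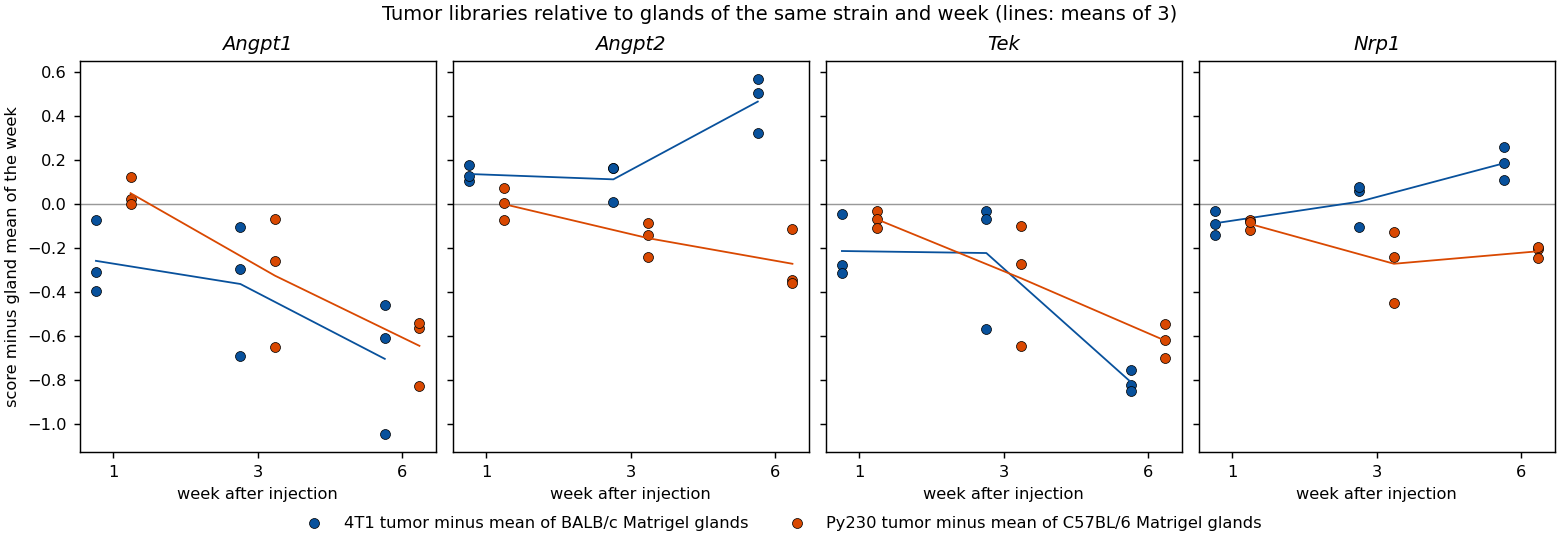
Score of each tumor library minus the mean of the 3 Matrigel glands of its strain and week (vertical axis) for Angpt1, Angpt2, Tek and Nrp1 by week after injection, with blue points for 4T1 and orange points for Py230 tumors and lines through the means. By week 6, Angpt1 and Tek lay below the glands in all 6 tumors, while Angpt2 and Nrp1 lay above the gland mean in the 3 4T1 tumors and below it in the 3 Py230 tumors, although the 4T1 call of Nrp1 was lost under both other scalings.

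From one week to the next, 4 members were called in 4T1 tumors between weeks 3 and 6, Angpt2 higher and Kdr, Angpt1 and Tek lower (53% of all genes called). The count was 2 without 4T1 replicate 3 of week 3 and 5 with both adipocyte-poor libraries of week 3 left out, where Vegfb was also lower. Between weeks 1 and 3, no member was called in 4T1 tumors by limma and 4 had an unadjusted p under 0.05 (0.628% of all genes called). Without 4T1 replicate 1 of week 3, however, and likewise with both adipocyte-poor libraries left out, 6 members were called, all higher at week 3: Vegfa (adjusted p = 0.00935), Vegfb (0.0168), Kdr (0.00383), Flt4 (0.0362), Nrp1 (0.0205) and Tek (0.0439, all without replicate 1 alone), and without 4T1 replicate 2 of week 1 Vegfa was called (0.0401). The 0.628% is from the fit of all libraries. The share of all genes called in the fits with libraries left out is not given here, so the count of 6 has none beside it.

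In Py230 tumors, Nrp1 (-0.208, adjusted p = 0.0140) and Angpt2 fell between weeks 1 and 3 (20% of all genes called, 7.17% lower), and neither call held without replicate 1 of week 3 (0.224, with a difference of -0.120, and 0.201) or with both adipocyte-poor libraries left out (0.151 and 0.183). The count there was 0 without replicate 3 of week 1, 1 without replicate 2 of week 1 or of week 3, and 4 without replicate 3 of week 3. Between weeks 3 and 6 no member was called by limma and 3 had an unadjusted p under 0.05 (6.03% of all genes called), but without replicate 1 of week 3 Vegfb (0.0166), Angpt1 (0.0229) and Tek (0.00485) were called lower at week 6. The difference between the models changed from week 1 to week 3 for Vegfa, Flt1 and Nrp1 (15.3% of all genes called, 4.89% higher), Nrp1 by 0.366 (SE 0.0824, adjusted p = 0.00520), and from week 3 to week 6 for Angpt2 (26.7% called, 17.8% higher). That Nrp1 call was lost with only the libraries of the groups compared in the fit (0.131). Without 4T1 replicate 1 of week 3, 5 members were called in the first of these steps and 3 in the second, where Kdr and Tek were lower. With both adipocyte-poor libraries left out, Vegfb (0.441, adjusted p = 0.0457), Kdr (0.478, 0.00633) and Tek (0.407, 0.00481) were called in the first step and Kdr and Tek in the second, and between weeks 3 and 6 Vegfb, Kdr, Angpt1 and Tek were called lower in Py230 tumors. In the first step 1 member was called without any one of 8 other libraries and 5 without Py230 replicate 3 of week 3, and in the second 2 without Py230 replicate 3 of week 3.

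Within both tumor groups of week 3, Tek was lowest in the adipocyte-poor library. The same libraries were also the lowest of their groups in the means of blood endothelial and of mural cell markers. The blood endothelial mean was 0.535 in 4T1 replicate 1 against 0.844 and 0.900, and 0.452 in Py230 replicate 1 against 0.619 and 0.750. 4T1 replicate 1 of week 3, with an adipocyte mean of 0.570, had Tek at 0.491 against 1.03 and 0.993 in the other tumors of its group, and Py230 replicate 1, at 0.193, had Tek at 0.373 against 0.745 and 0.919. Not every member was lowest there: Flt1 in 4T1 replicate 1 was the highest of its group (1.39, 1.21 and 1.24 in replicates 1, 2 and 3). Against glands, the 8 adipocyte markers were all called lower at week 6 in both models, with median differences of -2.16 in 4T1 and -1.78 in Py230 tumors. The means of the adipocyte list did not overlap between the tumors and glands of week 6. Fewer cells of a type and less RNA per cell cannot be told apart in bulk tissue. The part of the adipocyte, endothelial or mural share in the falls of Kdr, Tek, Angpt1 and Vegfb was not tested.

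**Figure D5:**
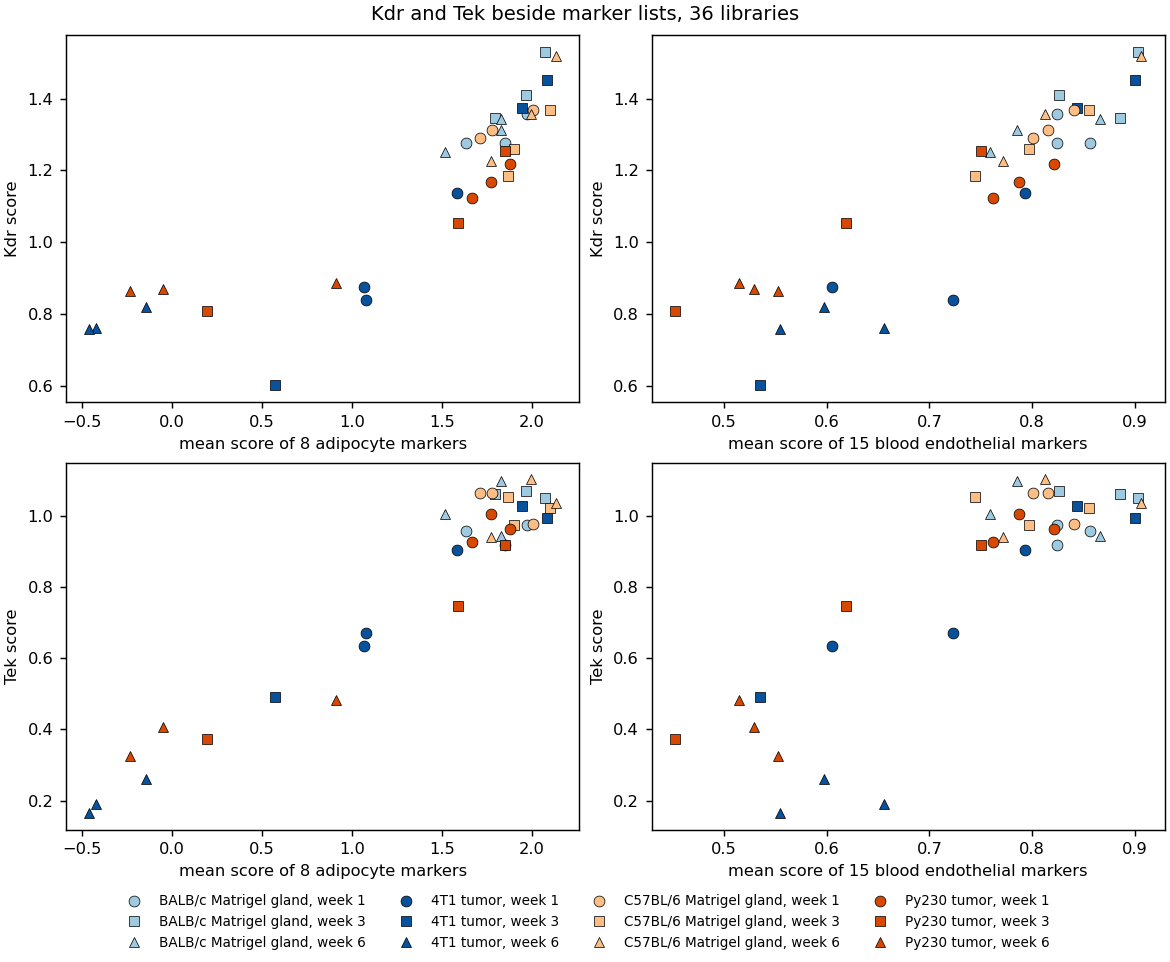
Scores of Kdr (upper panels) and Tek (lower panels) in the 36 libraries against the mean score of 8 adipocyte markers (left) and of 15 blood endothelial markers (right), with colors for tumors and glands and symbols for weeks. The libraries with the lowest adipocyte means, from -0.458 to 0.570, include all but 1 tumor of week 6 and replicate 1 of both tumors of week 3, and they have low Kdr and Tek scores. The remaining tumor of week 6, Py230 replicate 3, had an adipocyte mean of 0.911 and likewise low scores, with Kdr at 0.888 and Tek at 0.481. The blood endothelial means of all these libraries lay between 0.452 and 0.656. Kdr was also low in 4T1 replicates 1 and 3 of week 1 (0.838 and 0.874). Their adipocyte means were 1.08 and 1.07 and their blood endothelial means 0.723 and 0.605.

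Over all genes at week 6, 38.6% were called higher and 21.5% lower in 4T1 tumors than in glands, 28.8% and 18.7% in Py230 tumors than in glands, and 24.1% and 16.7% in 4T1 against Py230 tumors. The counts of the marker and pathway lists at week 6 stand beside these shares, and a share near them is no result about a list. Of 15 blood endothelial markers, which include Pecam1, Cdh5 and Erg, 8 were lower and 1 higher in 4T1 tumors than in glands at week 6 (median difference -0.183), and 12 were lower in Py230 tumors (-0.292). Vwf, a protein stored in endothelial granules, led in 4T1 tumors (-0.724, adjusted p = 1.33e-06), followed by Mmrn2 (-0.401, adjusted p = 5.23e-05), and Sox17 (-0.494, adjusted p = 1.33e-05) and Pecam1 (-0.295, adjusted p = 1.42e-05) in Py230 tumors. The list mean was 0.656, 0.554 and 0.597 in the 4T1 tumors of week 6 and 0.553, 0.529 and 0.515 in the Py230 tumors, against 0.786, 0.759 and 0.867 and 0.772, 0.906 and 0.813 in their glands. At week 6, 4T1 tumors exceeded Py230 tumors in 3 of the 15 and were lower in 1, led by Eng (0.418, adjusted p = 1.68e-09) and Vwf (-0.475, adjusted p = 4.34e-04). The part of the endothelial share in the members' falls was not tested.

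Of 10 genes of tip cells and sprouting, 5 rose and 1 fell in 4T1 tumors at week 6, and 6 rose and 1 fell in Py230 tumors, with medians of 0.224 and 0.250. Unc5b, a guidance receptor of the vessel wall, rose by 1.18 in 4T1 and by 0.512 in Py230 tumors, and Apln, a peptide ligand of tip cells, by 1.25 and 0.915. Between the models at week 6, Unc5b (0.589, adjusted p = 6.61e-07) and Esm1 (0.743, adjusted p = 2.29e-05), a secreted proteoglycan of tip cells, were higher in 4T1 tumors. Of 8 mural cell markers, 4 were lower and 1 higher in 4T1 tumors and 3 lower in Py230 tumors, led by Notch3 in 4T1 (-0.697, adjusted p = 4.88e-10) and Cspg4 in Py230 (-0.535, adjusted p = 0.0122). Of 6 lymphatic endothelial markers, 2 were lower and 1 higher in 4T1 tumors, with Reln (-0.942, adjusted p = 8.35e-05) and Prox1 (-0.458, adjusted p = 0.00131) lower, and 1 (Reln) was lower in Py230 tumors.

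The other ligands, receptors, modulators and signaling genes of the pathways, 19 in all, split in both directions. In 4T1 tumors of week 6, 7 were higher and 5 lower than in glands (median 0.0366), led by Ccbe1, which helps to mature VEGF-C (1.43, adjusted p = 1.29e-10), and Sema3f, a ligand of neuropilins (0.667, adjusted p = 4.58e-10). In Py230 tumors 6 were higher and 10 lower (median -0.202), led by the adaptor Shb (0.506, adjusted p = 1.61e-07) and by Pgf, placental growth factor, a ligand of VEGFR1 (0.932, adjusted p = 4.38e-07). Between the models at week 6, 6 were higher in 4T1 tumors and 6 lower. Nrp2, the neuropilin that serves VEGF-C, was higher in 4T1 tumors at week 1 (0.272, adjusted p = 0.00471), week 3 (0.452, adjusted p = 8.36e-06) and week 6 (0.958, adjusted p = 4.05e-12). Adamts3, the protease that cleaves VEGF-C, was lower in 4T1 tumors at week 3 (-0.538, adjusted p = 1.90e-05) and week 6 (-1.22, adjusted p = 3.67e-12).

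Of 16 genes of the response to low oxygen, which do not include Vegfa, 9 rose and 3 fell in 4T1 tumors at week 6 (median 0.305), and 6 rose and 3 fell in Py230 tumors (0.120), beside medians over all genes of 0.0651 and 0.0337. Car9, a carbonic anhydrase and a standard hypoxia marker, led in both (1.63, adjusted p = 2.89e-09 in 4T1 and 1.42, adjusted p = 1.43e-07 in Py230 tumors). The interval of the Vegfa difference was -0.190 to 0.229 in 4T1 tumors, and in Py230 tumors Vegfa was lower. Between the models, 8 of the 16 were higher in 4T1 tumors at week 6 and 1 lower, and Ndrg1 (0.632, adjusted p = 2.63e-07) and Vldlr (-1.15, adjusted p = 5.01e-07) led.

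The other marker lists at week 6 moved as follows against glands. Of 7 macrophage markers, 2 were higher in 4T1 tumors (all 7 at week 1) and 0 were called by limma in Py230 tumors, where 0 had an unadjusted p under 0.05. Of 7 fibroblast markers, 3 were lower in 4T1 and 4 in Py230 tumors, led by Dcn (-1.30, adjusted p = 4.98e-07 and -1.18, adjusted p = 5.01e-06). Of 6 genes of the lactating epithelium, 4 were lower in 4T1 tumors, and 2 were lower and 1 higher in Py230 tumors. Of 7 epithelial markers, 2 were higher and 1 lower in 4T1 tumors and 2 higher in Py230 tumors, and of 7 skeletal muscle markers all were lower in 4T1 tumors and 0 were called in Py230 tumors by limma, where 0 had an unadjusted p under 0.05, with median differences of -2.65 and -1.39. The part of these cell types in the members' values was not tested.

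Over the 36 libraries, which share groups, the members' patterns were described by Pearson's r without a test. Kdr and Tek (r = 0.900), Angpt1 and Tek (0.884) and Kdr and Vegfb (0.872) were most alike, and Angpt2 ran against Tek (-0.260) and Kdr (-0.254). Among 13557 other genes at or above 100 mean normalized counts, the nearest to Tek were Gstm2-ps1 (0.984), Gstm1 (0.982) and Ebf1 (0.976), of which the first pair may share reads as near copies. Nearest to Kdr were Mccc1 (0.961) and Aldh6a1 (0.957), to Vegfb Adipor2 (0.950), Gm6032 (0.950) and Mmd (0.944), and to Angpt1 Rbpms (0.942), Gabarapl1 (0.936) and Calcoco1 (0.926). Angpt2 was most like Asap1 (0.874), Fndc3a (0.862) and Anxa5 (0.849), Nrp1 like Zfp275 (0.846), Chst12 (0.842) and Hspg2 (0.833), and Vegfa like Flywch1 (0.870), Rbms2 (0.866) and Chn1 (0.854). Flt4 was most like Dll4 (0.788), Pcdh12 (0.688) and Gna11 (0.685), where Dll4 is a Notch ligand of tip cells and Pcdh12 an endothelial protocadherin. The nearest genes of Flt1 (Tmem30a 0.723, Ric1 0.719 and Zdhhc17 0.673) and Vegfc (Stxbp5 0.641, Lhfp 0.610 and Cnksr3 0.608) were less alike.

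In the order of the 12 group means, most neighbors did not differ beyond their pooled SD: of 11 steps, 10 for Vegfa, Vegfc, Flt1, Angpt1 and Angpt2, 9 for Vegfb, Kdr, Nrp1 and Tek and all 11 for Flt4 were within it. Sorting the means by size keeps these steps small, so the counts do not measure how far the groups differ. Angpt1, for one, did not overlap between the tumors and glands of week 6. For Angpt2, the step from the 4T1 tumors of week 6 (mean 0.628) to those of week 1 (0.340) was the one beyond it. For Tek, the steps beyond it separated the Py230 tumors of week 3 (0.679) from those of week 6 (0.404), and these from the 4T1 tumors of week 6 (0.206). For Kdr, the lowest means were again those of week 6, 0.874 in Py230 and 0.780 in 4T1 tumors, and the highest 1.43 in the BALB/c glands of week 3. For Nrp1, the highest mean was 1.42 in the 4T1 tumors of week 6 and the lowest 1.06 in the Py230 tumors of week 3.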

How the data were processed

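RNA-seq was analyzed for 36 mouse libraries in 12 groups of 3, grouped by the labels. The authors prepared stranded libraries, aligned paired reads with STAR against mm10, counted them with summariseOverlaps and used DESeq2, with versions not given in the sources used here. The deposited expression table holds a score per gene and library, standardized by the authors to a mean of 0 and an SD of 1 in each library. It does not hold counts, and 0 of its columns were left unmapped. The authors' deposited tables of the 4T1 and Py230 comparison were used for symbols and mean normalized counts only. Their log2 fold changes, standard errors and p-values, and a hallmark table, were not used. A further 5366 genes were named from the reference.

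Scores were fitted with limma 3.58.1 in R 4.3.3, with 1 mean per group, trend and robust options, and Benjamini-Hochberg adjustment over 21650 genes (threshold 0.05). Depth is unknown, so precision rests on the spread between 3 libraries per group. The fit was run on simulated scores with independent normal noise, 1 spread per gene and changed genes in 1 group only. That run does not show how the fit behaves where many genes change or the spread differs between groups. Alternatives were quantile and median scaling, only genes at or above 100 mean normalized counts, only the libraries of the groups compared, no trend and no robust option, a replicate block and leaving out each library. Leaving out both adipocyte-poor tumor libraries of week 3 was added after the data were seen. Of the comparisons, all same-numbered pairs deviated together only in BALB/c against C57BL/6 glands of week 1 (correlations of 0.413, 0.789 and 0.558, from the data and not the labels). A replicate block within these glands, also added after the data were seen, left 0 members called, as without it. The members and lists were chosen with earlier results of these data known. Genes outside the set were named by a rule: in each list at most 2 genes of smallest p in the comparison of the sentence, and for each member the 3 genes of highest r, of which 1 is not reported here. Lists covered other pathway genes, tip cells and sprouting, hypoxia, and blood and lymphatic endothelial, mural, adipocyte, macrophage, epithelial, lactating epithelial, fibroblast and skeletal muscle markers.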

Additional observations from a re-analysis of the deposited data

Results flagged for a closer look

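For 4 members, an effect differed between the 2 models by a test of the difference itself. After subtraction of the BALB/c minus C57BL/6 gland difference, Nrp1 was higher in 4T1 than in Py230 tumors by 0.283 at week 3 and by 0.400 at week 6, and Angpt2 by 0.738 at week 6. The Nrp1 value of week 3 was called in the fit of all libraries (limma, adjusted p = 0.0315) but not without any one of 7 libraries (0.0504 to 0.143): 4T1 replicate 2 or 3, Py230 replicate 1, BALB/c gland replicate 1 or 3 and C57BL/6 gland replicate 1 or 2. The step from week 1 to week 3 differed between the models by 0.438 for Vegfa, 0.324 for Flt1 and 0.366 for Nrp1, and the step from week 3 to week 6 by 0.441 for Angpt2. Of 19 alternatives, the Vegfa call was lost in 10 and the Flt1 call in 12, both among these with only the libraries of the groups compared in the fit (0.195 and 0.185), and Flt1 also with both adipocyte-poor libraries of week 3 left out (0.230, 0.216). The Nrp1 call of that step was lost in 1 of the 19, with only the libraries of the groups compared (0.131). All values are in score units, and positive values are higher in 4T1 tumors. The adipocyte, blood endothelial and mural markers of the tumors of week 3 ranged widely within groups, and their part in these values was not tested.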

How the results depend on the processing

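Of 210 values of the 10 members in 21 comparisons, 35 were called by limma, and 17 of these calls held under every alternative. Over 2930 values under alternatives, no sign of a called value turned, 87 times a call was lost and 73 times one was gained. When only the libraries of the groups compared entered the fit, so that fewer libraries set the spread, the members called were 0 for 4T1 minus Py230 tumors at weeks 1 and 3, 0 for 4T1 tumors minus glands at week 1, 0 for Py230 tumors minus glands at week 3, 0 for the subtracted difference at week 3 and 4 at week 6, 0 for the step from week 1 to week 3 in Py230 tumors and for its difference between models, and 2 for the step from week 3 to week 6 in 4T1 tumors. With both adipocyte-poor libraries of week 3 left out, the count was 1 for Py230 tumors minus glands and 0 for the subtracted difference at week 3, 6 in 4T1 and 0 in Py230 tumors for the step to week 3 and 5 for its difference between models, and 4 in Py230 tumors for the step to week 6 and 3 for its difference between models.

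Without one library at a time, the count for 4T1 minus Py230 tumors was 0 to 2 at week 1, 1 to 5 at week 3 and 2 to 3 at week 6. Against glands it was 0 to 3, 0 to 2 and 4 to 6 in 4T1 tumors, and 0, 1 to 5 and 6 to 7 in Py230 tumors. The subtracted difference gave 0, 0 to 2 and 2. The step from week 1 to week 3 gave 0 to 6 in 4T1 tumors, 0 to 4 in Py230 tumors and 1 to 5 for the difference between models, and the step from week 3 to week 6 gave 2 to 5, 0 to 3 and 1 to 3. These counts stand without a share of all genes, as the shares given with the results are those of the fit of all libraries. Outside the glands of week 1, in no comparison did all same-numbered pairs deviate together: over all comparisons, 16 of 48 such pairs had a correlation of deviations over 0.1 (-0.466 to 0.789). With 3 libraries per group, this check cannot decide whether the numbers pair the libraries. With the replicate block in all groups, no call was lost and 4 were gained, and the count for 4T1 tumors minus glands at week 1 was 3.

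With median scaling the share of calls that were higher over all genes was 49.4% against 39.1% for 4T1 minus Py230 tumors at week 3, 71.0% against 59.1% at week 6, and 69.0% against 56.4% for the subtracted difference at week 6. Depth is unknown, and 3 libraries per group limit the calls. The cause of the changes was not tested.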
